A study of Mus musculus with 4 samples.

Results

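Circular chromosome conformation capture (4C) with the H19 imprinting control region as bait was read on a tiling array in mouse embryonic stem (ES) cells and in embryoid bodies (EB). The regions described here are the 3 large tiled regions away from the bait's chromosome that held a run of probes positive on all 4 arrays. They span chr6:3239918-7297721, chr9:89312984-90312966 and chr15:72432602-73237322 of the mm6 build. They hold 46639, 10707 and 9686 probes, or 67032 of the 388160 tiled positions, with neighbouring probes a median of 52 bp apart. They are 3 of 22 large regions, each at least 800000 bp long, on chromosomes other than 7, and 3 of 123 labelled regions in all. The 4C values chose them, so the 4C levels of the runs are given as a description without a test. The input channel of the same arrays played no part in the choice.

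The ES cells were of the R1 line, and the EB were derived in vitro and taken at 12 days of differentiation. Each group had 2 arrays, one for each of 2 biological replicates, and each replicate pooled 3 independent samples. All 4 arrays shared the bait, the array design, the dyes (4C product in Cy5, MboI-digested genomic DNA as input in Cy3) and a single dye orientation. The study thus rests on 1 cell line and pooled material, and the arrays carry DNA, so markers of the cell states could not be checked. The tiled regions had been picked for the array from an earlier genome-wide 4C screen of pooled tissues and cells, per the series' design text.

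In 4C, cross-linked chromatin is cut and ligated so that DNA lying near the bait in the nucleus becomes joined to it, and the joined fragments are amplified outward from the bait. A probe lights up in the 4C channel when its fragment was captured, but also when it binds amplified DNA from elsewhere. Digested genomic DNA should give all single-copy sequences a similar input signal, and probes for repeated sequence are usually brighter there. The H19 imprinting control region lies between Igf2 and H19 on distal chromosome 7 and binds the insulator protein CTCF on the maternal allele. It is a standard bait for contacts between imprinted domains on different chromosomes. No mm6 annotation or probe sequence was used here, so the sites below are given by position and not by gene.

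Signal is given as log2 of the spot's intensity over the median of all tiled probes of that array and channel. A value of 1, which is 2-fold over that median, is called 4C-positive, and a run is a set of at least 3 neighbouring probes, no more than 300 bp apart, that are each positive on at least 2 arrays. Median 4C intensities were 969 and 1521 units in ES and 543 and 1638 units in EB. The scanner's ceiling lay 6.08 and 5.43 log2 over the 4C median in ES and 6.92 and 5.32 in EB. Of 1193 random-sequence control spots, 6 and 4 were 4C-positive in ES and 1 and 12 in EB. Replicate 1 of both states was processed with NimbleScan 2.3.78 and replicate 2 of both with NimbleScan 2.3.18, so the replicate number is also a processing batch that holds both states.

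All 3 runs were short. Those on chromosomes 15 and 9 were weak in 4C and among the brightest sequences of the array in input. The chromosome 6 run joined 1 probe bright in both channels to 2 probes of lower 4C and input. On chromosome 15 the run covered chr15:73003638-73004370, 733 bp and 11 probes, of which 9 were positive on all 4 arrays. Its mean 4C signal was 1.47 and 1.31 in ES and 1.40 and 1.19 in EB, that is 2.78, 2.48, 2.64 and 2.29 times the array median. The 4 arrays lay close together, and the ES and EB values overlapped. The input of the same 11 probes was 6.77 and 5.63 in ES and 6.59 and 5.58 in EB, or 109, 49.5, 96.6 and 47.9 times the median. On 3 arrays all 11 probes were within 2-fold of the scanner ceiling in input, and on EB replicate 2 it was 10 of 11. None of the 15 probes within 1000 bp on either side was 4C-positive on any array. EB minus ES was -0.10 (-0.07 within replicate 1 and -0.12 within replicate 2), and the SD between replicates was 0.11 in ES and 0.15 in EB.

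On chromosome 9 the run covered chr9:89505081-89505234, 154 bp and 3 probes, 1 of them positive on all 4 arrays. Its mean 4C signal was 1.37 and 1.63 in ES and 1.20 and 1.24 in EB. Both EB arrays thus lay below both ES arrays, with EB minus ES at -0.28 (-0.17 within replicate 1 and -0.39 within replicate 2). Input was 6.68 and 5.43 in ES and 6.39 and 5.14 in EB. Of the 17 probes within 1000 bp on either side, 1 probe after the run was 4C-positive on 3 arrays (1.27 and 1.11 in ES, 0.89 and 1.06 in EB). Its input was 6.50 and 5.38 in ES and 6.11 and 4.63 in EB. The run stood at the top of a slope in input. Over the 6 probes before it, from 463 to 203 bp away, mean input over the 4 arrays climbed from 1.39 to 4.85, while their mean 4C signal stayed between -0.18 and 0.37. Its last probe was the highest on 3 of the 4 arrays (2.13 and 2.16 in ES, 1.71 and 1.52 in EB). Without that probe the other 2 averaged 0.99 and 1.36 in ES and 0.95 and 1.10 in EB.

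On chromosome 6 the run covered chr6:3271006-3271159, also 154 bp and 3 probes, and its mean did not describe its members. The means were 1.80 and 2.10 in ES and 2.01 and 2.31 in EB. The first probe alone carried the ES signal, at 5.29 and 5.43 in ES (the second at the scanner ceiling) and 3.64 and 3.70 in EB, with input of 6.84 and 5.49 in ES against 6.60 and 5.76 in EB. The next probe read 0.05 and 0.60 in ES and 1.19 and 1.79 in EB. The last probe read 0.06 and 0.27 in ES and 1.21 and 1.42 in EB. Both of these were below the positive level on both ES arrays and above it on both EB arrays, so the chromosome 6 run was shared by both states at 1 probe only. The input of these 2 probes was also lower than that of the first, averaging 3.08 and 3.28 in ES and 2.88 and 2.84 in EB.

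**Figure D1:**
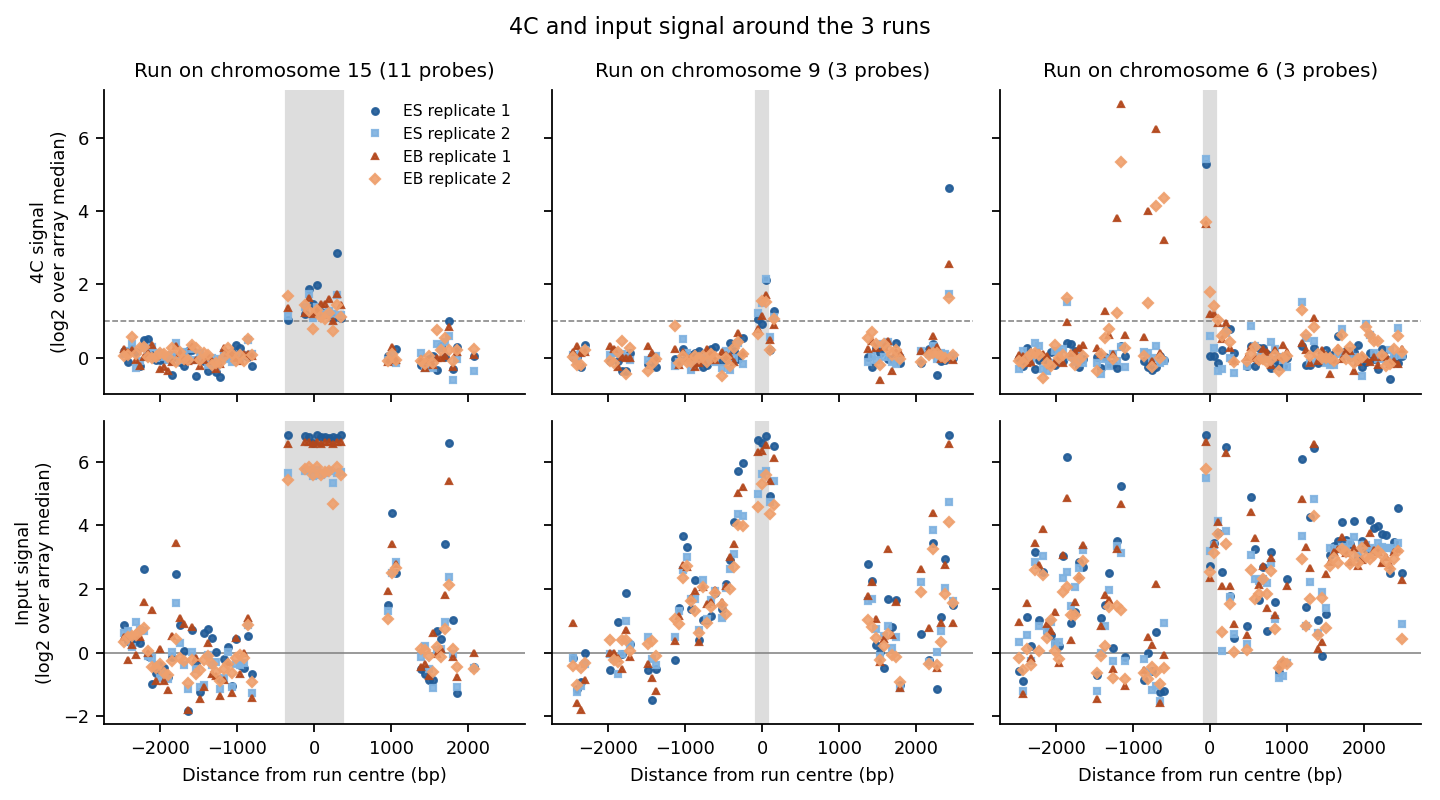
4C signal (top) and input signal (bottom), both log2 over the array median, of every probe within 2500 bp of the centre of each run; grey bands mark the runs, the dashed line the positive level of 1, and marker shape and colour the 4 arrays. The chromosome 15 run forms a low plateau in 4C above a plateau near the ceiling in input, and the chromosome 6 panel has EB probes far above the run itself.

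The selection turned on runs of at least 3 probes and on the level in EB. The other 5 runs found in the 22 large regions fell outside it: 1 on chromosome 11, 3 on chromosome 12 and 1 on chromosome 14. They were positive in ES, with means from 2.26 to 5.30, and not in EB, with means from -0.07 to 0.71. Their mean input was low to moderate, from -1.01 to 3.63. If runs of 2 probes had been admitted, 6 of the other 19 regions would have qualified as well. Of the 3 runs, that on chromosome 9 was lost when either ES array was left out and that on chromosome 6 when either EB array was left out, so 2 runs with 14 probes remained each time. The chromosome 15 run kept its 11 probes without any 1 array, and was lost after quantile normalization.

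In input, the run probes stood apart on every array. The median input of the 17 run probes was 6.76 and 5.63 in ES and 6.56 and 5.59 in EB, against -0.02, -0.02, -0.01 and -0.01 for all probes of the 3 regions. The difference was 6.15 ± 0.61 (SD, n = 4 arrays) and had the same sign on 4 of 4. The exact two-sided sign-flip test over arrays gave p = 0.125, which is the smallest that 4 arrays allow. The same 17 probes were read on every array, and the 4C signal that chose them climbed with input. A common sign was therefore likely in advance, and no conclusion is drawn from the test.

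Across the 3 regions, 4C signal climbed with the input brightness of the same probe, and it did so in both states. Among 6645 probes with mean input under -1, the median 4C signal lay between -0.09 and -0.04 on the 4 arrays. It lay between 0.10 and 0.25 for the 944 probes with input from 3 to 4, between 0.31 and 0.56 for the 250 probes from 4 to 5, and between 1.19 and 1.35 for the 186 probes at 5 or more. In the brightest class 58.6% and 62.4% of probes were 4C-positive in ES and 65.1% and 58.6% in EB, against 0.135% and 0.0602% in ES and 0.0451% and 0.105% in EB in the dimmest class. Of the 17 run probes, 15 fell in the brightest class. The other 19 large regions had the same slope, with 51.3% to 59.1% of 511 probes positive in the brightest class.

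**Figure D2:**
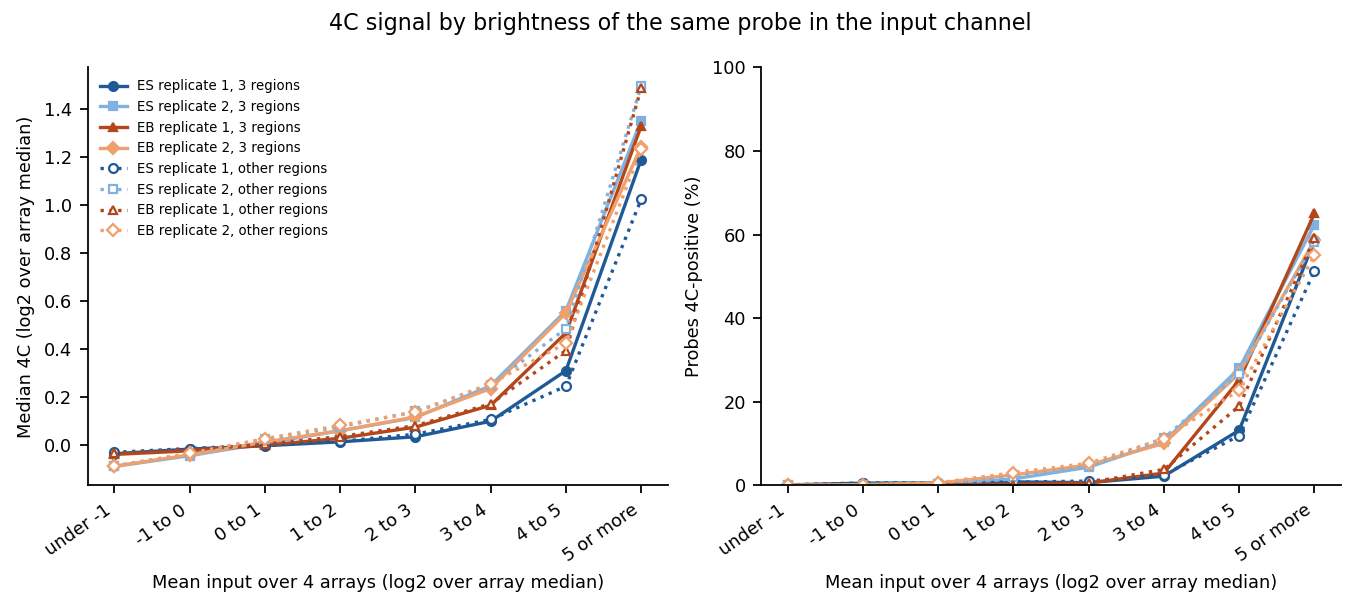
Median 4C signal (left, log2 over the array median) and percent of probes 4C-positive (right) in classes of mean input over the 4 arrays (log2 over the array median), for the 3 regions (filled, solid) and the other 19 large regions (open, dotted), 1 line per array. On all 4 arrays and in both sets of regions, both measures stay near 0 in the dim classes and climb steeply in the class at 5 or more.

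Taken probe by probe, the 3 regions together were no richer in 4C-positive probes than the array as a whole. In ES 0.803% and 1.06% of their probes were positive, where all tiled probes gave 1.54% and 2.1%. In EB the values were 0.471% and 1.29%, against 0.574% and 1.52%. Chromosome 15 had the highest share of the 3 regions on every array (1.21% and 1.64% in ES, 0.743% and 1.91% in EB), and in EB it was above the share of all tiled probes. It also had the brightest input, with region medians from 0.21 to 0.38 where chromosome 6 had -0.12 to -0.05.

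The probes positive on all 4 arrays were mostly lone bright probes and not runs. There were 113 of them, 60 on chromosome 6, 18 on chromosome 9 and 35 on chromosome 15. This is 0.169% of the regions' probes, beside 0.2% of all tiled probes and 0.160% in the other 19 large regions. The share was 0.129% on chromosome 6, 0.168% on chromosome 9 and 0.361% on chromosome 15. Chromosome 15 thus lay above the range of the other 19 regions, 0.0775% to 0.285%. Chromosome 6 lay below their median of 0.152%, and chromosome 9 above it but within the range. Only 11 of the 113 lay in the 3 runs. Mean input was at least 3 for 111 of them, and 91 (80.5%) had no adjacent probe positive on any array. In the other 19 regions 298 of 322 such probes (92.5%) had no positive neighbour. For the 113 probes of the 3 regions, median 4C signal was 1.99 (ES replicate 1), 2.39 (ES replicate 2), 2.13 (EB replicate 1) and 2.0 (EB replicate 2). With the arrays in the same order, median input of these 113 probes was 6.62, 5.42, 6.46 and 5.02.

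The probes positive on all 4 arrays differed from those of the bait's own neighbourhood in both channels, with lower 4C and higher input in the 3 regions. In the distal region of chromosome 7, the 167 probes positive on all 4 arrays had a median 4C signal of 4.85 and 5.21 in ES against 6.68 and 5.09 in EB. Their median input was ordinary, at 0.92 and -0.04 in ES and 1.03 and -0.13 in EB. The shared probes of the 3 regions were thus brighter in input by 5.43 ± 0.22 (SD, n = 4 arrays), in the same direction on 4 of 4 arrays (exact two-sided sign-flip test, p = 0.125, the smallest possible). Here too the same probes were read on every array, so no conclusion is drawn from the test. Their 4C signal is part of what chose them and was not tested.

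**Figure D3:**
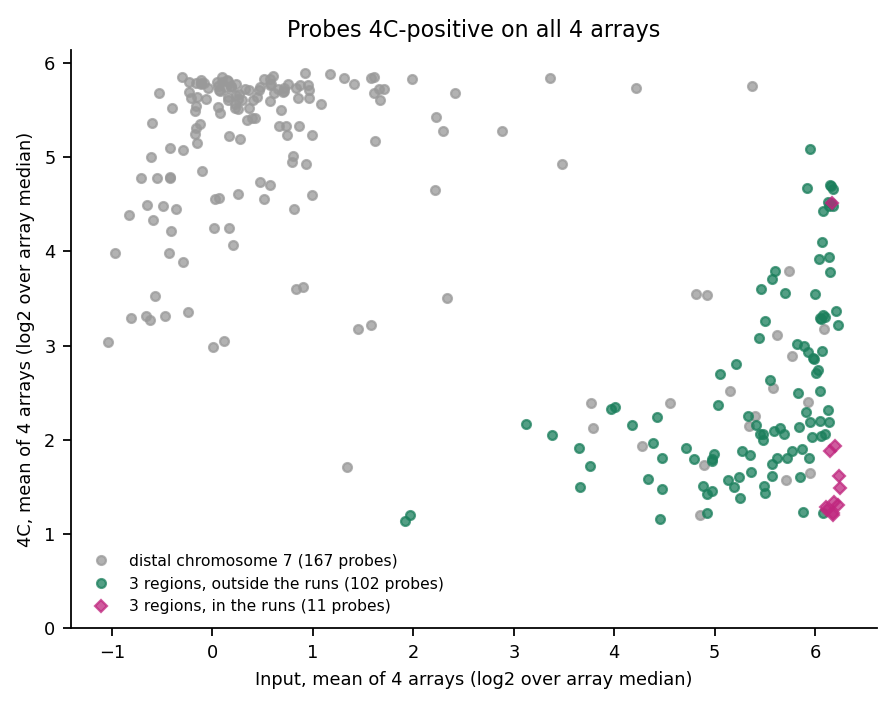
Mean 4C signal against mean input signal over the 4 arrays (both log2 over the array median) for every probe positive on all 4 arrays: 167 in the distal chromosome 7 region (grey) and 113 in the 3 regions, of which 11 lie in the runs (magenta diamonds) and 102 outside them (green). The chromosome 7 probes centre on an input of 0.41 and the probes of the 3 regions on 5.77. Probes of the other 19 large regions, which were also bright in input, are not drawn.

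The 3 probes outside the runs with the highest mean 4C signal in each region were all bright in input. On chromosome 6 the highest was at chr6:4515337-4515386, with 4C of 5.86 and 5.43 in ES against 4.31 and 4.73 in EB, and input of 6.75 and 4.90 in ES against 6.62 and 5.52 in EB. Its neighbours 52 bp away on both sides averaged -0.07. On chromosome 9 the highest was at chr9:89964217-89964266, with 5.24 and 4.45 in ES and 3.18 and 2.81 in EB. The second there, chr9:90274642-90274691, was highest in EB replicate 1 (2.80 and 2.53 in ES, 5.29 and 2.85 in EB). On chromosome 15 the highest was at chr15:72864908-72864957, with 6.05 and 5.0 in ES and 3.89 and 3.87 in EB. The other members of these lists began at chr6 3360443 and 5236473, chr9 89962969, and chr15 72616040 and 72974160. Of the 9 probes, 2 had a positive neighbour 52 bp away, at chr6 5236473 (up to 4.75) and chr6 3360443 (up to 2.70). All 9 had input between 4.90 and 6.85 on every array, and at 7 of them both ES arrays were within 2-fold of the ceiling in 4C.

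Bright input did not always bring 4C signal. In the 3 regions 103 probes had input of at least 5 on all 4 arrays (0.154% of their probes, beside 0.0982% of all tiled probes), and 51 of these (49.5%) were 4C-positive on all 4 arrays. That share was 54.6% (208 of 381) among all tiled probes this bright and 68.2% (118 of 173) in the other 19 regions. By region it was 46.5% on chromosome 6, 81.8% on chromosome 9 and 44.9% on chromosome 15. Chromosome 15 held 49 of the 103, which is 0.506% of its probes, where the other 19 regions ranged from 0.0258% to 0.177%. The median 4C signal of the 103 probes was 1.20 and 1.20 in ES and 1.34 and 1.27 in EB. In the other 19 regions it was 2.35 and 2.66 in ES and 2.62 and 2.21 in EB. The lower values in the 3 regions rest on asking for bright input on every array: by mean input of at least 5, the medians were 1.19 and 1.35 in ES and 1.33 and 1.24 in EB in the 3 regions, and 1.02 and 1.49 in ES and 1.49 and 1.23 in EB in the others.

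The regions also held 5 stretches of at least 3 adjacent probes with input of at least 5 on all 4 arrays, and 1 of these, of 8 probes, lay in the chromosome 15 run. On chromosome 15, further along from the run, 10 bright probes at chr15:73023549-73024066 had the run's input (6.77 and 5.59 in ES, 6.58 and 5.52 in EB). Their 4C signal was lower than the run's on every array, at 0.84 and 0.82 in ES and 0.79 and 0.72 in EB. The adjoining 11 probes at chr15:73024277-73024846 read 0.98 and 0.88 in ES and 0.78 and 0.80 in EB. On chromosome 6, 3 bright probes at chr6:6005226-6005379 read 0.27 and 0.54 in ES and 0.75 and 0.41 in EB, and 4 at chr6:6005434-6005639 read 0.61 and 0.38 in ES and 0.79 and 0.28 in EB. None of the probes of these 4 stretches was positive on all 4 arrays. With these cutoffs, the stretch in the chromosome 15 run was the only 1 of the 5 whose mean passed the positive level. The other chromosome 15 stretches came close to that level. Input at the run and at these stretches lay near the scanner ceiling (6.85 and 5.73 in ES, 6.62 and 5.815 in EB), so a difference in input may not show. The chromosome 9 run did not count as a bright stretch, its first probe reading 4.97 in ES replicate 2 and 4.57 in EB replicate 2 in input.

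Positive probes were shared more within replicate 2 than within a cell state. ES and EB of replicate 2 had 422 positive probes in common (59.6% of the ES list and 48.96% of the EB list), 250 of them positive on those 2 arrays alone. The 2 EB arrays had 190 in common (60.1% of the list of replicate 1 and 22.0% of that of replicate 2), 25 on those arrays alone. The 2 ES arrays had 150 in common (27.9% and 21.2%), 16 on those arrays alone. ES and EB of replicate 1 had 137 in common (25.5% and 43.4%), so replicate 1 showed no such excess. Pearson's r of the 4C signal over the 67032 probes was 0.54 for the 2 states of replicate 2 and 0.23 to 0.39 for the other 5 pairs of arrays. For input it was 0.83 to 0.95 for all 6 pairs. The probes share arrays, neighbours and sequence, and these values are a description. The other 19 regions showed the same order, with 993 probes positive on the 2 replicate 2 arrays alone against 52 on the ES arrays alone and 45 on the EB arrays alone. The part of the processing batch in the sharing was not tested.

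**Figure D4:**
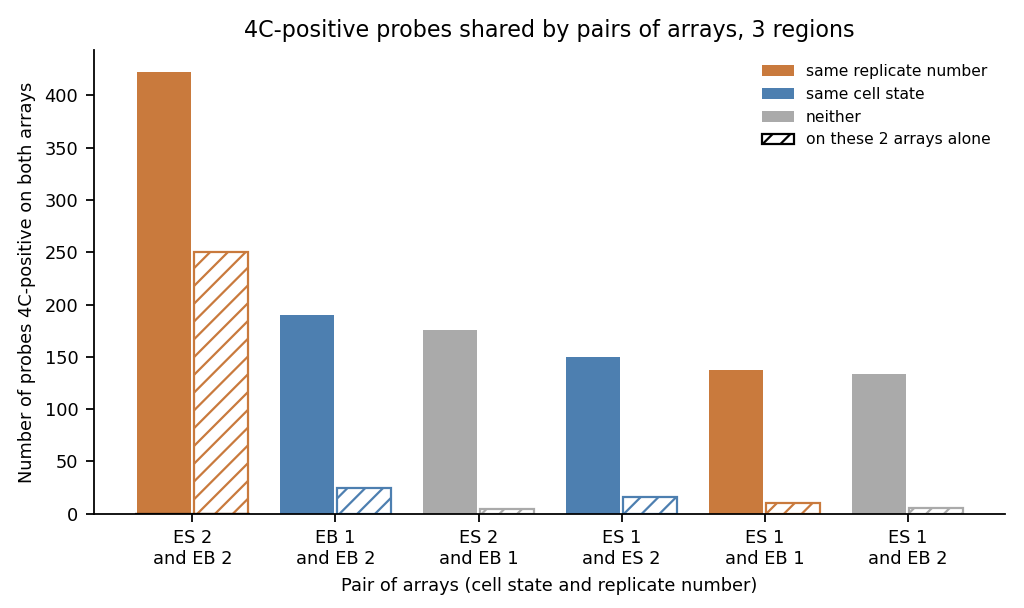
Number of probes of the 3 regions 4C-positive on both arrays of each pair (filled bars), and on those 2 arrays alone (hatched bars), coloured by whether the pair shares the replicate number, the cell state or neither. The pair of replicate 2 stands at 422, and no other pair exceeds 190.

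A group of probes positive in EB alone lay directly before the chromosome 6 run, and it was noticed after the values were seen. Between chr6:3269846 and 3271159, a stretch of 1314 bp, 7 of 12 probes were positive on both EB arrays and on neither ES array. The 7 include the last 2 probes of the run, and negative probes lay among the 5 before it. Their mean 4C signal was -0.06 and 0.20 in ES and 3.79 and 2.82 in EB. The way these probes were picked means that the states cannot overlap. Their mean input was 2.05 and 1.76 in ES and 2.32 and 0.93 in EB. In the 3 regions 25 probes were positive in EB alone (0.0373%, beside 0.0224% in the other 19 regions and 0.0873% of all tiled probes). Positive in ES alone were 16 (0.0239%, beside 0.0259% in the other 19 regions and 0.684% of all tiled probes). Joined within 1000 bp, the EB-alone probes formed 1 group of at least 2 probes in the 3 regions, the one described here, and 1 in the other 19, a pair on chromosome X. The ES-alone probes formed 1 such group in the 3 regions, a pair in the bright stretches of chromosome 15, and 4 in the other 19. The 2 groups of the 3 regions became 57 after normexp correction and 7 after quantile normalization, so how isolated the group is rests on the background step.

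The highest probe of the group, chr6:3269898-3269947, read 0.31 and 0.29 in ES and 6.92 and 5.32 in EB. Both EB values were at the scanner ceiling, so the difference of 5.82 log2 is a lower bound. Its input was 5.24 and 3.12 in ES and 4.66 and 1.34 in EB. The probe at chr6:3270361-3270410 read -0.24 and 0.32 in ES and 6.24 and 4.13 in EB, and its input was 0.64 and -1.03 in ES and 2.15 and -0.61 in EB. The probe at chr6:3270465-3270514 read -0.07 and -0.09 in ES and 3.20 and 4.34 in EB, with input between -1.19 and 0.92. The negative probe between these, at chr6:3270413-3270462, read 0.05 and -0.15 in ES and 0.12 and -0.01 in EB. A lone probe further on, chr6:3275162-3275211, read 0.29 and 0.10 in ES and 6.74 and 5.32 in EB (replicate 2 at the ceiling), with input of -1.39 and -1.0 in ES against 2.17 and -0.38 in EB. These last sites were thus near or below the array median in input, except on EB replicate 1, where input was higher at 2 of them than on the other 3 arrays. Whether 4C signal spread into the input channel there was not tested.

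**Figure D5:**
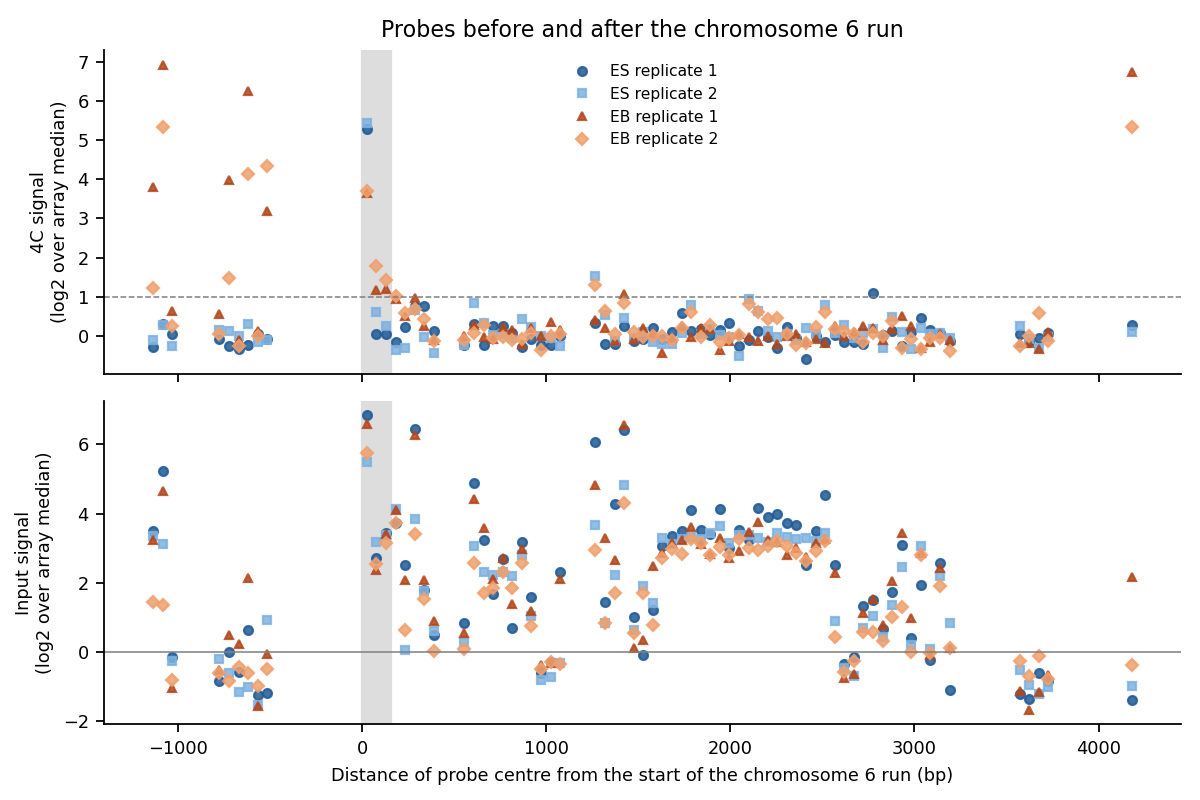
4C signal (top) and input signal (bottom), log2 over the array median, of the probes from 1160 bp before to 4156 bp after the start of the chromosome 6 run, plotted by the distance of the probe centre, with the run in grey and the positive level of 1 dashed. EB points reach 6.92 before the run and 6.74 after it where the ES points stay near 0, and at the first probe of the run the ES points are the higher ones.

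Tested probe by probe with limma over all 388160 tiled probes and Benjamini-Hochberg adjustment, a fit added after seeing the data, 22 of the 67015 probes outside the runs differed in 4C signal between EB and ES at adjusted p under 0.05. This share of 0.0328% stood beside 0.586% of all tiled probes and 0.0309% (62 of 200964) in the other 19 regions. The 6 that were higher in EB lay on chromosome 6 (0.069% of all tiled probes were called in that direction). Of these, 3 belonged to the group above: the probe at 3269898 (adjusted p = 0.000353), that at 3270361 (EB minus ES 5.15, SE 0.57) and that at 3270465 (EB minus ES 3.85, SE 0.33). The lone probe at 3275162 differed by at least 5.84, that at 3271162, next to the run, by 1.23 (SE 0.18) and that at 6897428 by 2.05 (SE 0.21). At each of these 6 the EB values lay above the ES values without overlap, an order that 15.2% of all tiled probes had. The difference thus had the same sign within replicate 1 and within replicate 2. The calls were made on the same values, so this order adds no support to them. With a robust variance prior, 3 of the 6 were no longer called: 3269898 (adjusted p = 0.54), 3270361 (1.0) and 3275162 (0.187). Leaving out either EB array ended the call at 3271162 (adjusted p = 0.164 without replicate 1, 0.259 without replicate 2), as did quantile normalization (0.051). In the log2 ratio of 4C to input, 3 probes were called, at 3269846, 3269898 and 3275162 on chromosome 6, all higher in EB, beside 0.309% of all tiled probes. In input alone, no probe of the 3 regions was called by limma, and 137 had an unadjusted p under 0.05.

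The 16 probes higher in ES were of another kind. They lay on chromosome 6 (7), chromosome 9 (2) and chromosome 15 (7), 0.517% of all tiled probes being called in that direction. EB minus ES ranged from -3.12 to -1.38, and where an ES array was at the ceiling the size is a lower bound. Mean input was at least 3 at 13 of the 16, 11 were positive on all 4 arrays, and at the same number at least 1 ES array was within 2-fold of the ceiling in 4C. The largest difference was at chr6:3350940-3350989, with 3.64 and 3.50 in ES and 0.10 and 0.78 in EB, and input of 4.87 and 3.803 in ES against 3.65 and 2.99 in EB. At chr15:72616040-72616089 the signal was 6.06 and 5.40 in ES and 3.63 and 3.61 in EB, so it was high in both states. These calls moved with the background step: 2 of the 16 were called after a normexp correction and 3 after quantile normalization, which also turned the sign at 6. Without EB replicate 1 there were 6 left, and without EB replicate 2 also 6.

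The 113 probes shared by all 4 arrays had a median EB minus ES of -0.24. Both EB arrays were below both ES arrays at 38 of them and above at 5, where 15.5% and 15.2% of all tiled probes had these orders. Within replicate 1 the median was -0.05 and within replicate 2 it was -0.39. After quantile normalization the median was 1.35, and both EB arrays were above at 86 probes, so the direction rests on the scaling.

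Over 10 kb windows no difference between the states was called in the 3 regions. With limma on window medians, none of the 580 windows without a run was called in 4C, where 0.423% of all 3785 windows were, and 8 had an unadjusted p under 0.05. The differences of all 583 windows ran from -0.10 to 0.17. On chromosome 6 they reached 0.17 in the window from 3360001 and -0.09 in that from 6960001. On chromosome 9 the extremes were 0.07 (from 90190001) and -0.07 (from 90170001), and on chromosome 15 they were 0.07 (from 72490001) and -0.10 (from 73020001). A window median hardly registers a change at a few probes: the window that holds the chromosome 6 run and the EB-alone group read 0.03 and 0.02 in ES and 0.04 and 0.02 in EB.

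In input none of the 583 windows was called by limma (0% of all 3785), and 3 had an unadjusted p under 0.05. The widest gap was on chromosome 15 in the window from 73020001, which holds the bright stretches after the run. Its input was 6.15 and 3.60 in ES and 4.59 and 3.25 in EB, a difference of -0.95 with an SE of 0.81. Most of that gap lay in replicate 1 (-1.55, against -0.35 in replicate 2). The largest gain there was 0.19 (from 72580001). On chromosome 6 the input extremes were 0.32 (from 5590001) and -0.67 (from 5290001), and on chromosome 9 they were 0.41 (from 90260001) and -0.20 (from 89690001).

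In the ratio of 4C to input no window was called either, with none at an unadjusted p under 0.05, beside 0.423% of all windows. The extremes were 0.55 (from 5290001) and -1.0 (from 3360001) on chromosome 6, 0.28 (from 89970001) and -0.34 (from 90180001) on chromosome 9, and 0.31 (from 73020001) and -0.24 (from 72580001) on chromosome 15. The window from 3360001 on chromosome 6 rested on 5 probes and read -1.43 and -0.19 in ES and -2.67 and -0.95 in EB. With the replicate number as a block it was called (adjusted p = 0.0083; within replicate 1 the difference was -1.24 and within replicate 2 it was -0.77), and with loess normalization its sign turned, to 0.71.

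No region mean was called either. In 4C, EB minus ES was 0.005 on chromosome 6, 0.006 on chromosome 9 and 0.001 on chromosome 15, with SEs from 0.013 to 0.016. In input the differences were 0.024 (SE 0.067), 0.011 (SE 0.067) and -0.071 (SE 0.086). None of the 3 regions was called in either channel by limma (0% of 123 regions in 4C and in input), and none had an unadjusted p under 0.05.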

How the data were processed

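Each array's 2 channels were read from the scanner tables that the authors deposited, which give 1 intensity per 50-base probe and channel, on a linear scale with no normalization recorded; they were written by NimbleScan 2.3.78 or 2.3.18, per the file headers. Positions are those of the mm6 design. The 6 repeated spots were averaged, random-sequence controls were set aside, and log2 intensities were centred on each array's tiling median. Windows of 10 kb with at least 5 probes, and regions with at least 10, were compared between EB and ES in limma 3.58.1 (moderated linear model by lmFit and eBayes, Benjamini-Hochberg over all windows or regions, threshold 0.05) in R 4.3.3. Run finding and counts used Python 3.11.15. The window script was tested on simulated data: planted shifts of 1 log2 were recovered in 100% of 4C windows, 78% of input windows and 64% of ratio windows. The regions, lists, tests and named items were chosen with earlier results of these data known. Named were all runs, the 3 highest probes per region outside the runs, the extreme windows and every window called; the bright stretches, the EB-alone group and the single-probe fit were added after seeing the values. The number of arrays limits the precision. With 2 arrays a group, an exact permutation test over arrays cannot go below p = 0.33. There was no dye swap, so dye and channel cannot be told apart. Deviations of same-numbered arrays from their group means correlated over windows (all windows: r = 0.08 in 4C, 0.31 in input, 0.32 in the ratio; the 583 windows of the 3 regions: 0.28, 0.46 and 0.47), and the replicate block is an alternative.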

Additional observations from a re-analysis of the deposited data

How the results depend on the processing

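The count of 3 runs with 17 probes, positive on average on all 4 arrays, depended on its settings. It fell to 0 runs and 0 probes with a positive level of 1.5 or one taken from the brightest random controls. It was 1 run of 11 probes when at least 5 probes were asked for, 6 runs when 2 were enough, and 23 runs with 130 probes after normexp with an offset of 50. After quantile normalization the runs held 7 probes, and the chromosome 15 run was lost. In the log2 ratio to input 1 run of 3 probes was left, and none of the 3 original runs overlapped it. With a positive level of 0.8, other gaps or random-control centring, all 3 runs were found again. Leaving out 1 array left 2 of the 3 runs and 14 probes in each case, without the chromosome 9 run when an ES array was left out and without the chromosome 6 run when an EB array was.

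The counts of 0 called windows and regions held under every listed setting with windows or regions in 4C and input; in the ratio the replicate block called 1 window (the chromosome 6 window from 3360001) and changed no other call of a window or region. Single probes in place of windows called 22 in 4C and 3 in the ratio. The replicate block raised the single-probe count in 4C from 22 to 62, normexp to 62 and quantile normalization to 91, and leaving out 1 array gave 27 to 435.

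Signs turned after quantile normalization at probes chr6 5236473 (0.22) and 5244374 (1.01), chr9 89964217 (0.77), and chr15 72777089 (0.79), 72796115 (0.97) and 72974160 (0.69). In input windows, signs turned at 72580001 without EB replicate 1 (-0.16, with 0.54 without EB replicate 2), at 73020001 without the brightest 20% of input (0.012) and without ES replicate 1 (0.32, with -2.23 without ES replicate 2), at 5590001 without the dimmest 20% (-0.14) and at 5290001 without the brightest 20% (0.29). In ratio windows they turned at 73020001 with normexp (-0.10), without the brightest 20% (-0.027), without ES replicate 1 (-0.19, with 0.80 without ES replicate 2) and without EB replicate 2 (-0.14), at 72580001 without EB replicate 1 (0.19, with -0.68 without EB replicate 2), at 5290001 without the brightest 20% (-0.48), at 3360001 with loess (0.71), and at 89970001 with loess (-0.0083) and without the brightest 20% (-0.0077). The causes were not tested. Signals near the scanner ceiling limit every value at the bright probes.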
